A study of Mus musculus with 94 samples.

Results

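Genes for the proteins that coat and build lipid droplets were followed through obesity and its regression in 2 fat depots of the mouse. The members were 9 of the 20411 gene symbols in the count tables, chosen by name for their place on or at the droplet and not by any measured value: Plin2, Plin3, Plin4, Plin5, Cidec, Fitm1, Fitm2, Bscl2 and Hilpda. Poly(A) RNA was sequenced from the epididymal (eWAT) and the inguinal (iWAT) white fat of 47 male C57BL/6JBomTac mice, an inbred strain with no engineered allele, which gave 94 libraries. All mice were on the low-fat diet D12450J before they were divided into groups at 10 weeks of age. The obese group (5 mice) then ate the high-fat diet D12492 for 18 weeks and was 28 weeks old. The 3 regression groups (6 mice each) went through the same 18 weeks and then returned to the low-fat diet for 2, 6 or 12 weeks, to an age of 30, 34 or 40 weeks. Each of these 4 groups had its own 6 lean mice of the same age, which stayed on the low-fat diet throughout. Obesity in this model was induced by diet, and each library is whole tissue, so that fewer cells of a type and less RNA per cell cannot be told apart.

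A lipid droplet is a core of triglyceride and sterol ester under a single layer of phospholipid, and in a white adipocyte 1 droplet fills most of the cell. Droplets form within the membrane of the endoplasmic reticulum. Seipin, the product of Bscl2, marks the sites where they bud, and the fat storage-inducing proteins Fitm1 and Fitm2 help triglyceride to leave the membrane. Proteins of the perilipin family then coat the surface and control which lipases reach the core. Cidec (also called Fsp27) passes lipid from small droplets to large ones, and Hilpda binds and inhibits adipose triglyceride lipase. Loss of seipin leads to lipodystrophy in humans, and so do some variants of the coat protein perilipin 1.

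Of the 9 genes, Plin3, Plin4 and Plin5 lie on the minus strand of chromosome 17 in mm10, and Plin4 (chr17:56100591-56109803) and Plin5 (chr17:56111601-56117596) are separated by 1797 bases. Hilpda (chr6:29272488-29275446, plus strand), Plin2 (chr4:86648386-86670060, minus strand) and Bscl2 (chr19:8837467-8848683, plus strand) gave the clearest differences below, and a promoter of each is shown for that reason. Each is a window of 300 bases, from 250 before to 50 after a RefSeq start, in GRCm38.p6 and on the gene's own strand. The letters ACGTG and GCGTG, the core that hypoxia-inducible factors bind, were searched on both strands, and every match is in capitals. The Hilpda window (chr6:29272376-29272675) is the one of 2 annotated starts with more matches, and the Bscl2 window (chr19:8837217-8837516) is the one of 3 starts with any match. The Plin2 window is at chr4:86670010-86670309.
Hilpda: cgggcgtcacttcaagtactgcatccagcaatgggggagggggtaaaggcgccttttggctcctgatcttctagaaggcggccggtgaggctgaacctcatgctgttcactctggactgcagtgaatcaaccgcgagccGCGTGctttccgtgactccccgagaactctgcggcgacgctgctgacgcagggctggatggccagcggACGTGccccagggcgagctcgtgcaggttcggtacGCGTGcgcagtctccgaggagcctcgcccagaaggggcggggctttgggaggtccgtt
Plin2: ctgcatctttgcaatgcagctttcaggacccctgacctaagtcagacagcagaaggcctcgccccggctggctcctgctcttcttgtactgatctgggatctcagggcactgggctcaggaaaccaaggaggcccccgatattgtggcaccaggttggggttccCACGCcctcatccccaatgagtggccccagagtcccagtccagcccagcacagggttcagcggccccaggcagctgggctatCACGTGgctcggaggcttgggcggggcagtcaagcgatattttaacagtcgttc
Bscl2: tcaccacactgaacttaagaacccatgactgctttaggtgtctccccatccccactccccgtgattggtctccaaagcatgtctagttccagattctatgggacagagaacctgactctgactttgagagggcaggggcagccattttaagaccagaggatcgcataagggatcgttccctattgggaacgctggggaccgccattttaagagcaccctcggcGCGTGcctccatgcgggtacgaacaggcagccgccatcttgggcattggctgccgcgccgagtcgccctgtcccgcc
The Hilpda window holds 3 matches and the Bscl2 window 1. In the Plin2 window the letters start at 3 places, 2 of which overlap as both strands of a single palindrome. Of 32851 such windows in the mouse table, 43.8% held at least 1 match and 20.6% at least 2. Among the 9 members, 9 of 14 windows and 6 of 9 genes held 1 or more. The other Hilpda window holds 1 match. The Hilpda and Bscl2 windows shown were picked by their matches, and a gene can have several windows. The share of all windows is therefore no measure for these 2 windows or for the count of genes. A match describes letters in a window and was not measured as binding here.

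In lean mice the droplet genes differed widely in level, and their order was nearly the same in both depots, with Hilpda and Plin5 in swapped places. The order was taken from CPM (counts scaled to a common library size) divided by the length of the merged exons, over the 24 lean mice of each depot. In eWAT, Cidec led with 1777 ± 359 CPM per kb (SD, n = 24), followed by Plin4 with 665 ± 162. Plin1, the adipocyte perilipin that is not among the 9 genes, stood at 526 ± 94.7 CPM per kb, and its SD range overlapped that of Plin4. Of the CPM per kb of the 5 perilipins, Plin4 made up 48.3% to 50.5% and Plin1 38.7% to 40.1% as means of the lean eWAT groups. Plin2 followed with 118 ± 32.5, Fitm2 with 49.4 ± 9.05, Bscl2 with 36.2 ± 6.62 and Plin3 with 28.6 ± 2.76 CPM per kb. Hilpda (11.3 ± 3.47) and Plin5 (6.46 ± 1.80) were low, and Fitm1 was close to 0. In iWAT the order began in the same way, with Cidec at 1159 ± 207 CPM per kb, and Plin4 (539 ± 109) and Plin1 (539 ± 115) had nearly equal means. Plin2 (213 ± 58.4), Fitm2 (47.5 ± 8.81), Bscl2 (32.5 ± 6.66) and Plin3 (30.3 ± 3.07) followed, and Plin5 (14.2 ± 5.02), Hilpda (9.94 ± 2.39) and Fitm1 (8.50 ± 16.7) closed the order. The SD ranges of Fitm2 and Bscl2, of Bscl2 and Plin3, and of Hilpda and Plin5 overlapped in both depots. That of Fitm1 overlapped those of Hilpda and Plin5 in iWAT. The genes were not tested against each other, so the order is one of means alone.

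The test of the depots in lean mice, with the mouse as a block, called 6 of the 9 genes, while 59.3% of all 14749 genes tested were called, so the share is near that of all genes. Cidec was 0.54 ± 0.08 log2 units higher in eWAT (± SE, edgeR adjusted p = 2.66e-07), with 3297 ± 666 CPM in eWAT and 2150 ± 384 CPM in iWAT, and was higher in eWAT in 24 of 24 lean mice. Plin4 was also higher in eWAT, by 0.22 ± 0.08 (adjusted p = 0.0156), in 18 of 24 mice. Plin2, Plin3 and Plin5 ran the other way. Plin2, the perilipin of most cells that are not adipocytes, was at 413.7 ± 114 CPM in eWAT and 748 ± 205 CPM in iWAT, a log2 difference of -0.92 ± 0.08 (adjusted p = 7.39e-13), and was higher in iWAT in 23 of 24 mice. Plin5, which in muscle, heart and brown fat ties droplets to mitochondria, was at 13.5 ± 3.75 CPM in eWAT and 29.7 ± 10.48 CPM in iWAT, a difference of -1.18 ± 0.11 (adjusted p = 9.91e-13), also in 23 of 24 mice. Plin3 differed by -0.16 ± 0.03 (adjusted p = 3.18e-05), and Fitm1 by -3.01 ± 0.60 (adjusted p = 3.60e-05), with its eWAT counts near 0. For Hilpda, Bscl2 and Fitm2 the differences were 0.10, 0.09 and -0.01, with adjusted p from 0.188 to 0.880. In the same contrast 7 of 7 markers of brown or beige adipocytes, 10 of 10 of skeletal muscle and 6 of 8 of macrophages were lower in eWAT than in iWAT, with median log2 differences of -2.71, -7.16 and -0.80. Their part in the depot differences of Plin5, Plin2 and Fitm1 was not tested. Within the mice of the lower label numbers (replicates 4 to 6), fitted with limma, the Plin4 difference was 0.21 with adjusted p = 0.0646, and within those of the higher numbers (replicates 1 to 3) that of Fitm1 was -1.33 with adjusted p = 0.176.

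**Figure D1:**
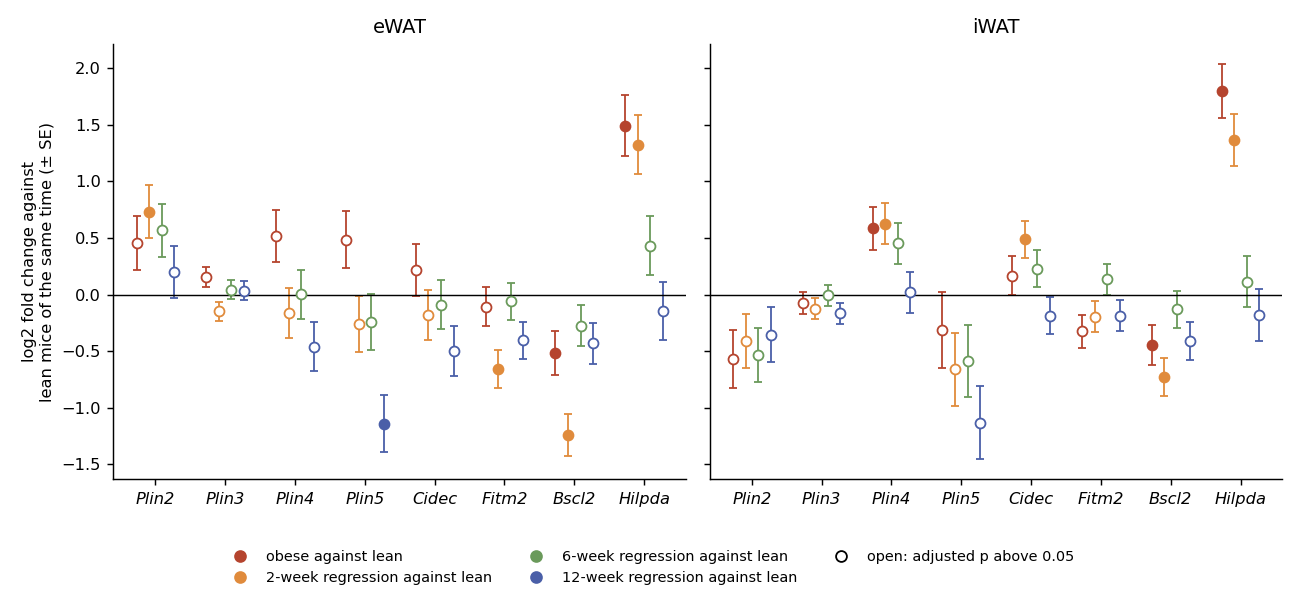
Log2 fold change of 8 of the 9 genes in obese or regression mice against lean mice of the same time, in eWAT (left) and iWAT (right), with the standard error as bars; filled points had an adjusted p under 0.05. Fitm1 is left out because it was too low in eWAT to test. Hilpda is the highest gene in obese and 2-week regression mice of both depots (1.32 to 1.80) and lies near 0 at 12 weeks, and Plin2 lies above 0 at every time in eWAT and below 0 at every time in iWAT.

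Few of these genes were called in obesity, and in both directions. In eWAT of obese mice 2 of the 8 genes tested passed the test, Hilpda higher and Bscl2 lower, where 23.4% of all 14323 genes were called. In iWAT 3 of 9 passed, Hilpda and Plin4 higher and Bscl2 lower, against 30.2% of 13899 genes. After 2 weeks of regression 4 of 8 were called in eWAT (35.7% of all genes) and 4 of 9 in iWAT (18.8%). At 6 weeks edgeR called 0 of 8 in eWAT, with 1 gene at an unadjusted p under 0.05, and 0 of 9 in iWAT, with 2 such genes; 7.58% and 1.04% of all genes were called there, and DESeq2 also called 0 in both. At 12 weeks 1 of 8 was called in eWAT (15.3% of all genes) and 0 of 9 in iWAT, where 2 genes had an unadjusted p under 0.05, DESeq2 called 1, and edgeR called 0.0288% of all genes. None of these shares is read as particular to the droplet genes. Between lean mice of 40 and of 28 weeks edgeR called 0 of 8 genes in eWAT (0.105% of all genes) and 0 of 9 in iWAT (0.496%), with 0 genes at an unadjusted p under 0.05 in either depot and 0 calls by DESeq2.

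Hilpda, the inhibitor of adipose triglyceride lipase, had the largest increase among the calls against lean mice. In eWAT it stood at 42.8, 30.0, 24.6, 46.8 and 14.6 CPM in the 5 obese mice, against a lowest, median and highest value of 9.32, 10.8 and 15.2 CPM in the 6 lean mice. All obese mice but 1 were above every lean mouse. The increase was 2.81-fold, a log2 fold change of 1.49 ± 0.27 (adjusted p = 0.000145). In iWAT the 5 obese mice had 36.1, 33.5, 21.5, 72.4 and 15.99 CPM, against 6.68, 10.6 and 13.6 CPM in lean mice, and the groups did not overlap. The increase was 3.48-fold (1.80 ± 0.24, adjusted p = 6.28e-07). The mouse with the highest and the mouse with the lowest Hilpda level in eWAT were also the highest and the lowest in iWAT.

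The increase was still called after 2 weeks on the low-fat diet, and not at 6 or 12 weeks. In eWAT the lowest, median and highest values were 22.0, 30.2 and 49.5 CPM in 2-week regression mice, against 6.48, 12.3 and 26.7 CPM in lean mice, a 2.50-fold increase (log2 1.32 ± 0.26, adjusted p = 0.000133) with some overlap. In iWAT they were 20.3, 23.7 and 30.8 CPM against 5.88, 9.15 and 13.0 CPM in lean mice, without overlap, and the increase was 2.57-fold (1.36 ± 0.23, adjusted p = 6.56e-05). At 6 weeks the log2 fold change was 0.43 ± 0.26 in eWAT (adjusted p = 0.294) and 0.11 ± 0.23 in iWAT (adjusted p = 0.856), and at 12 weeks it was -0.15 ± 0.26 and -0.18 ± 0.23. The test of the change itself gave a fall of the difference from the obese time to 12 weeks by 1.63 ± 0.37 in eWAT (adjusted p = 0.00969) and by 1.98 ± 0.33 in iWAT (adjusted p = 0.000282), and to 6 weeks by 1.69 ± 0.33 in iWAT (adjusted p = 0.00564). For the change to 12 weeks 2.32% of all genes were called in eWAT and 4.85% in iWAT, and for the change to 6 weeks 1.21% and 1.38%. In eWAT the change to 6 weeks was -1.06 ± 0.37 with adjusted p = 0.189, and -1.36 with adjusted p = 0.0346 without 6-week regression mouse 6, which had the highest level of its group (32.5 CPM). From obesity to 2 weeks edgeR called 0 of the droplet genes in either depot (5.82% of all genes in eWAT and 4% in iWAT, with 5 and 0 of the droplet genes at an unadjusted p under 0.05, and 0 calls by DESeq2).

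The mouse numbers in the labels fall into a lower series, with replicates 4 to 6 of every group (4 and 5 in obese mice), and a higher series, with replicates 1 to 3. What the series stand for was not given in the sources used here. Within the lower and the higher series Hilpda was higher in obese mice of both depots, with log2 fold changes of 1.59 and 1.39 in eWAT (adjusted p = 0.0283 and 0.0117) and of 2.14 and 1.57 in iWAT (adjusted p = 0.00271 and 0.00136). At 2 weeks the values were 1.96 (adjusted p = 0.00418) and 0.76 (0.0859) in eWAT and 1.93 (0.00304) and 0.85 (0.0606) in iWAT, and the 2-week call was lost within the higher series. The fall of the Hilpda difference from obesity to 12 weeks in eWAT was called in neither series (-1.91 and -1.32 in the lower and the higher, adjusted p = 0.140 and 0.338). It was also not called with runs of neighbouring mouse numbers within a group as a random block in limma (-1.47, adjusted p = 0.0579). In iWAT the fall to 12 weeks was called within the lower series (-2.52, adjusted p = 0.0240) and with the random block (-1.79, adjusted p = 0.0165), and not within the higher series (-1.55, adjusted p = 0.0761). The iWAT fall to 6 weeks was lost in all 3 of these fits, with -1.78 and -1.63 in the lower and the higher series (adjusted p = 0.229 and 0.0884) and -1.49 with the random block (adjusted p = 0.126). Leaving out any single mouse kept all 4 calls of Hilpda, with log2 fold changes from 1.18 to 1.99.

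**Figure D2:**
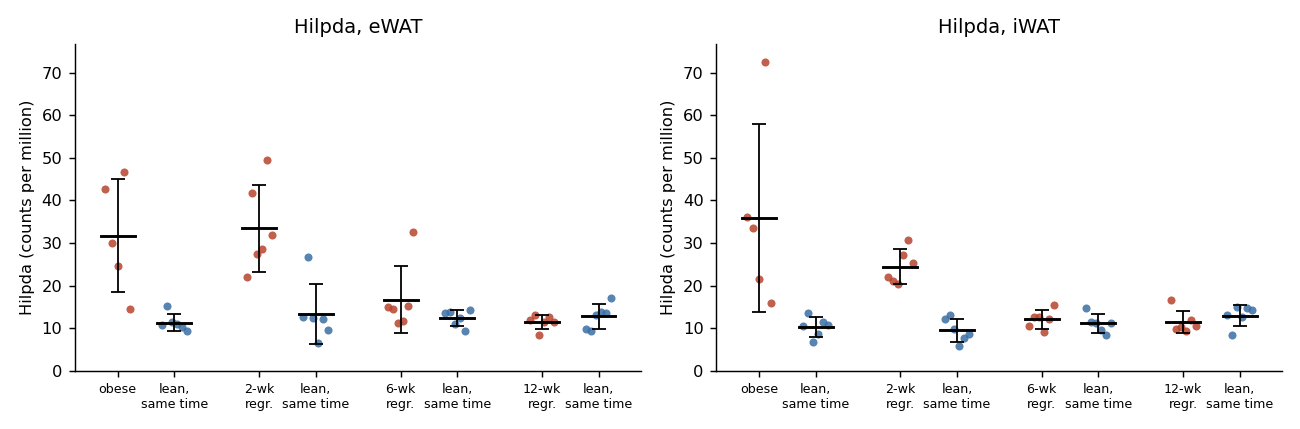
Hilpda in CPM for every mouse, in eWAT (left) and iWAT (right), each obese or regression group (red) beside the lean mice of the same time (blue); lines and bars are the mean and SD. The obese and 2-week regression mice reach 72.4 CPM, while the lean groups stay at or under 26.7 CPM.

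Hilpda is known as a target of hypoxia-inducible factors and of PPARs, and members of both groups moved in either direction. The part of either group in the Hilpda result was not tested. Of 11 genes of the hypoxia response, 4 were higher and 3 lower in obese eWAT, and 2 higher and 3 lower in obese iWAT, with medians of -0.17 and 0.05 on the log2 fold change scale against -0.0034 and 0.0196 over all genes. Of all genes 23.4% were called in obese eWAT and 30.2% in obese iWAT, in either direction. After 2 weeks 2 were higher and 2 lower in eWAT, and 4 higher and 2 lower in iWAT, where 35.7% and 18.8% of all genes were called. Adm, a vasoactive peptide, rose with Hilpda in both (0.67 ± 0.21 in eWAT and 1.11 ± 0.26 in iWAT). The pyruvate dehydrogenase kinase gene Pdk1 fell by 1.64 ± 0.23 in eWAT and by 2.38 ± 0.22 in iWAT, and the prolyl hydroxylase gene Egln3 fell by 1.29 ± 0.24 and by 2.50 ± 0.30. Of 10 PPAR target genes, 2 were higher and 1 lower in obese eWAT, and 1 higher and 2 lower in obese iWAT, with Cpt1a, the carnitine transferase of fatty acid oxidation, higher in both (0.69 ± 0.15 and 0.90 ± 0.13). After 2 weeks 4 of the 10 were higher and 2 lower in eWAT, and 2 higher and 2 lower in iWAT. The medians of the 10 were 0.32 and -0.19 in obese eWAT and iWAT, and 0.44 and -0.02 after 2 weeks. The PPAR targets called, 3 and 3 of 10 in obesity and 6 and 4 of 10 after 2 weeks in eWAT and iWAT, are read against the same 23.4%, 30.2%, 35.7% and 18.8% of all genes.

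Plin2 was higher in obese and regression eWAT than in iWAT relative to lean mice, and the depot difference was called in obesity and at 2 and 6 weeks. In eWAT the obese mice had 587, 734, 330, 715 and 445.3 CPM, against a lowest, median and highest value of 295, 357 and 657 CPM in lean mice. In iWAT the same obese mice had 652, 565, 362, 618 and 468.3 CPM, against 503, 785 and 1095 CPM in lean mice. The groups overlapped in both depots, and neither difference passed the test within its depot (0.45 ± 0.24, adjusted p = 0.175, and -0.57 ± 0.25, adjusted p = 0.0845). Without lean mouse 2 the iWAT difference was -0.67 with adjusted p = 0.0469. The difference between the 2 responses did, at 0.99 ± 0.24 log2 units (adjusted p = 0.0260), where 1.32% of all 14749 genes were called. After 2 weeks of regression Plin2 was higher in eWAT than in lean mice (log2 0.73 ± 0.23, adjusted p = 0.0117). The change of the eWAT difference from obesity to 2 weeks was not called (0.28 ± 0.33, adjusted p = 0.731). The lowest, median and highest values at 2 weeks were 396.7, 735 and 1045 CPM, against 321, 435.9 and 518 CPM in lean mice. The ranges overlapped, with the median of the regression mice above every lean mouse. In iWAT of the same mice the highest value was 560 CPM and the median 496 CPM, against a lowest, median and highest value of 259, 688 and 1017 CPM in lean mice (-0.41 ± 0.24, adjusted p = 0.232). The depot difference was 0.98 ± 0.23 (adjusted p = 0.00690, with 8.42% of all genes called). It was 1.10 ± 0.23 at 6 weeks (adjusted p = 0.0105, with 0.597% called) and 0.65 ± 0.23 at 12 weeks (adjusted p = 0.125). At 12 weeks edgeR called 0 of the 9 genes for a depot difference (0.0542% of all genes), 2 had an unadjusted p under 0.05, and DESeq2 called 0.

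The Plin2 depot difference in obese mice was not called without obese mouse 2 or 4 or without lean mouse 5 or 6 of that time, in fits with limma, where it was 0.84 to 0.92 with adjusted p from 0.0560 to 0.101. Within the lower series of mouse numbers the depot differences of Plin2 were 1.27, 1.62 and 1.22 log2 units in obesity and at 2 and 6 weeks, and within the higher they were 0.69, 0.30 and 0.99, with adjusted p from 0.0967 to 0.603. The Plin2 difference from lean mice in eWAT at 2 weeks was 1.11 (adjusted p = 0.00702) in the lower series and 0.27 (adjusted p = 0.609) in the higher. Macrophages carry Plin2, and the mean of their 8 markers was higher than in lean eWAT at all 4 times. The summed level of the macrophage markers ran from 640 to 4361 CPM in obese eWAT against 388 to 525 CPM in lean eWAT, and from 1133 to 4246 CPM at 2 weeks against 402.6 to 604 CPM in lean eWAT. Their mean log2 level was 2.51 higher in obese eWAT and 3.44 higher at 2 weeks (exact permutation p = 0.00216, the smallest it can give, adjusted p = 0.0173 over 72 tests), and in iWAT it was 1.45 higher in obesity and 0.89 higher at 2 weeks (exact permutation, adjusted p = 0.0292 and 0.0493). At 6 weeks it was 2.50 higher in eWAT and 0.27 higher in iWAT (exact permutation, adjusted p = 0.0173 and 0.705). At 12 weeks it was 2.73 higher in eWAT and 0.34 higher in iWAT (exact permutation, adjusted p = 0.0292 and 0.658), while in eWAT the log2 fold change of Plin2 was 0.20 (adjusted p = 0.558) and that of Hilpda -0.15 (adjusted p = 0.725). Their part in the results of Plin2 and of Hilpda was not tested.

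Plin5 was the perilipin called after 12 weeks of regression, when it was lower in eWAT. In eWAT the obese mice had 25.2, 15.7, 20.7, 14.4 and 15.1 CPM, against 8.37, 13.3 and 18.1 CPM in lean mice (log2 0.48 ± 0.25, adjusted p = 0.169). At 12 weeks the lowest, median and highest values were 4.15, 6.35 and 12.5 CPM in regression mice, against 10.7, 15.6 and 20.4 CPM in lean mice. Plin5 was 0.453 of the lean level there (log2 -1.14 ± 0.25, adjusted p = 0.00205), and 1 regression mouse lay within the lean range. The change of the difference from obesity to 12 weeks was -1.63 ± 0.36 (adjusted p = 0.00674). In iWAT the 12-week values were 4.04, 14.4 and 24.6 CPM, against 23.0, 31.7 and 53.6 CPM in lean mice, with a small overlap, and the log2 fold change was of the same size, -1.13 ± 0.32, with adjusted p = 0.130. DESeq2 called it there (adjusted p = 0.0496), as did edgeR with muscle and other tissue marker levels as terms (-1.32, adjusted p = 0.0244) and the authors' deposited table (-1.14, adjusted p = 0.0426). Within the lower and the higher series of mouse numbers the eWAT value was -1.42 (adjusted p = 0.0552) and -0.88 (adjusted p = 0.170). The eWAT change from obesity to 12 weeks was also called in neither, at -1.52 and -1.63 in the lower and the higher series (adjusted p = 0.0567 and 0.338). It was called with runs of neighbouring mouse numbers within a group as a random block in limma (-1.78, adjusted p = 0.00316). In the lower series alone Plin5 was also called at 2 weeks, at -0.65 in eWAT and -0.96 in iWAT (adjusted p = 0.0483 and 0.0481), where the values over all mice were -0.26 ± 0.25 and -0.66 ± 0.32 (adjusted p = 0.455 and 0.147). The mean of the 7 markers of brown or beige adipocytes was lower in iWAT at all 4 times, by 2.57, 2.32, 1.37 and 1.35 log2 units (exact permutation, adjusted p from 0.0173 to 0.0260). In eWAT at 12 weeks it was lower by 0.34 (exact permutation, adjusted p = 0.456). Of single markers edgeR called 6, 4, 0 and 0 of 7 lower in iWAT at the 4 times, where 30.2%, 18.8%, 1.04% and 0.0288% of all genes were called. In eWAT at 12 weeks it called 1 of 6 markers lower, beside 15.3% of all genes. Their part in the Plin5 result was not tested.

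**Figure D3:**
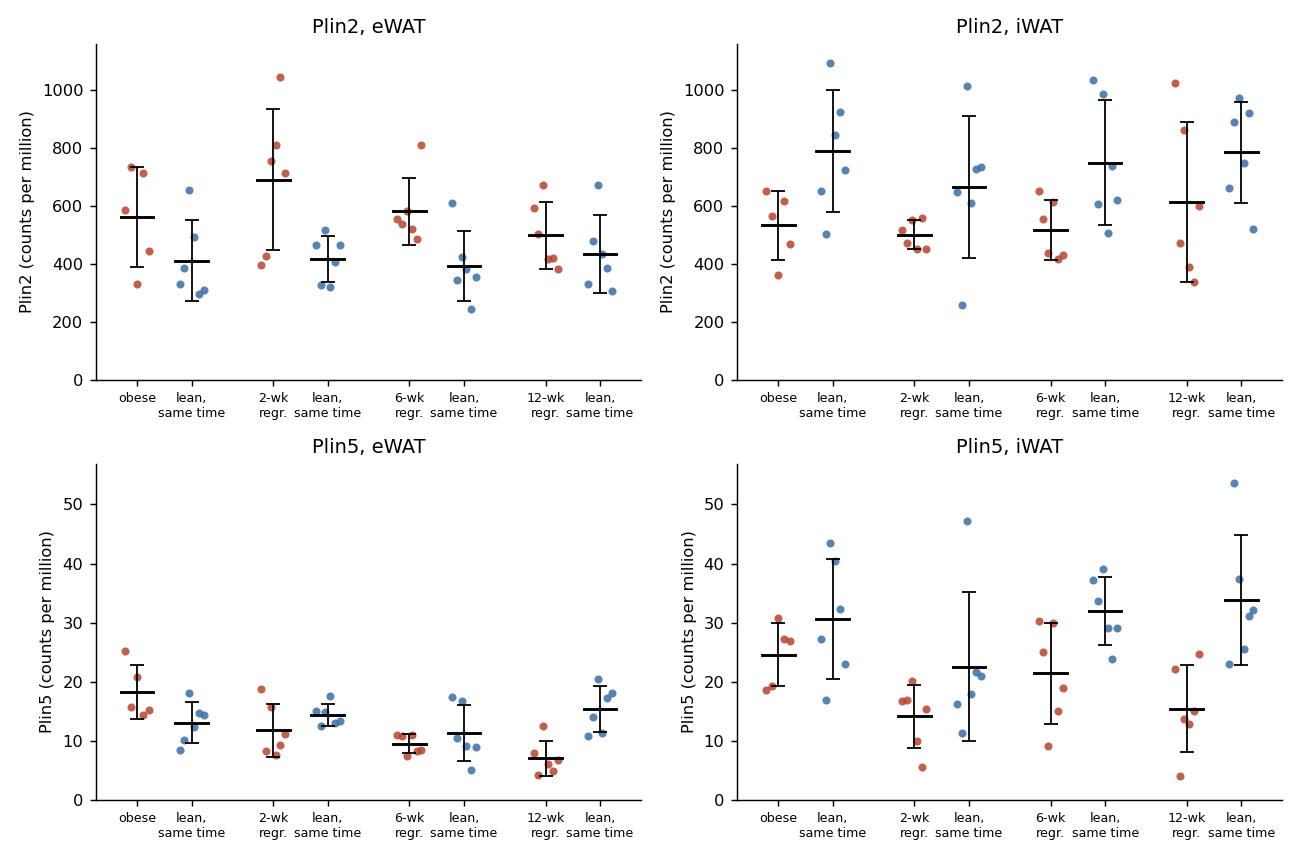
Plin2 (top) and Plin5 (bottom) in CPM for every mouse in eWAT (left) and iWAT (right), obese and regression mice in red beside lean mice of the same time in blue, with mean and SD. Plin2 means lie above lean means in eWAT and below them in iWAT, and the Plin5 means at 12 weeks are 7.004 against 15.3 CPM in eWAT and 15.4 against 33.8 CPM in iWAT.

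Plin4, which coats small and newly formed droplets of adipocytes and muscle, rose in iWAT. The obese mice had 4559, 5316, 4845, 5230 and 4642 CPM, against 2868, 3189 and 4243 CPM in lean mice, so that every obese mouse was above every lean mouse. The log2 fold change was 0.58 ± 0.19 (adjusted p = 0.0176). At 2 weeks the values were 2506, 4415 and 5461 CPM in regression mice, against 1767, 2680 and 3446 CPM in lean mice (0.63 ± 0.18, adjusted p = 0.0143), with overlap. The lean mice of that time had the lowest Plin4 mean of the 4 lean groups of iWAT, whose means were 3284, 2660, 3151 and 3363 CPM in the order of time. The mean log2 level of the 6 adipocyte markers was 10.05 ± 0.38 in those lean mice (SD, n = 6) and 10.49 to 10.53 in the other lean groups of iWAT, and its part in the Plin4 result was not tested. At 6 weeks the difference was 0.45 ± 0.18 (adjusted p = 0.178), and at 12 weeks 0.02 ± 0.18. In eWAT the obese mice spread from 3094 to 7791 CPM, against 2632 to 4513 CPM in lean mice (0.52 ± 0.23, adjusted p = 0.0955, or 0.68 with adjusted p = 0.0421 without obese mouse 4). The change of the eWAT difference from obesity to 12 weeks was -0.98 ± 0.32 (adjusted p = 0.0946, or -1.14 with adjusted p = 0.0346 without the same mouse). At 2 weeks the eWAT difference was -0.16 ± 0.22, and the depot difference was -0.81 ± 0.22 (adjusted p = 0.0170). Both iWAT calls were lost within each series of mouse numbers (lower, then higher), where the values in obesity were 0.70 and 0.52 (adjusted p = 0.152 and 0.132) and at 2 weeks 0.47 and 0.79 (adjusted p = 0.258 and 0.0586).

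Cidec, which builds the single large droplet, correlated with Plin4 (r = 0.824 in eWAT and 0.779 in iWAT over 47 libraries of log2 CPM). Both genes were read from the same library. These values pool the 8 groups of a depot, and the relation within groups was not tested. Cidec was higher than in lean mice in iWAT at 2 weeks, at 2635 ± 519 CPM against 1878 ± 499 CPM (SD, n = 6 each). The log2 fold change was 0.49 ± 0.16 (adjusted p = 0.0308). Obese mice had a mean of 2808 CPM in iWAT, and the change of the difference from obesity to 2 weeks was not called (0.32 ± 0.24, adjusted p = 0.446). The lean mice of that time were the lowest of the 4 lean groups of iWAT, whose means were 2500, 1878, 2056 and 2167 CPM in the order of time. The call was lost without regression mouse 1, 3 or 6 or lean mouse 1, 2 or 4, with log2 fold changes of 0.39 to 0.47 and adjusted p from 0.0565 to 0.0866, and within the lower and the higher series of mouse numbers (0.21 and 0.77, adjusted p = 0.474 and 0.0732). In eWAT the 2-week difference was -0.18 ± 0.22 (adjusted p = 0.579), and the depot difference was -0.75 ± 0.23 (adjusted p = 0.0328). That depot difference was -0.67 (adjusted p = 0.0681) without 2-week regression mouse 6 and -0.66 (adjusted p = 0.0832) without lean mouse 2, in fits with limma. For the same 2-week depot difference edgeR called 0 of 6 adipocyte markers higher and 4 lower, with a median of -0.59. Of all genes 8.42% were called there. The part of the adipocyte markers in the 2-week depot differences of Cidec, Plin4, Bscl2 and Fitm2 was not tested. In obese mice Cidec was 0.21 ± 0.23 higher in eWAT and 0.17 ± 0.17 higher in iWAT on the log2 scale, with intervals of 2 SE from -0.25 to 0.67 and from -0.17 to 0.51.

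Plin3, a soluble perilipin that moves onto new droplets in most cells, was not called in any comparison against lean mice within a depot. Its group means ran from 100.3 to 114.7 CPM in eWAT and from 102 to 121 CPM in iWAT. The log2 fold changes ran from -0.17 to 0.16, with SEs of 0.08 to 0.10.

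The make-up of the perilipin RNA per kilobase is given here as a description. In obese eWAT Plin4 made up 57.8% ± 6.20 and Plin1 28.1% ± 2.35 of the 5 perilipins (SD, n = 5), against 49.3% ± 5.22 and 38.8% ± 2.28 in lean eWAT (n = 6). In obese iWAT Plin4 made up 55.7% ± 4.09, Plin1 31.7% ± 4.61 and Plin2 9.91% ± 2.22, against 41.3% ± 5.47, 39.2% ± 2.46 and 16.3% ± 3.57 in lean iWAT. After 2 weeks of regression the Plin1 share was 27.1% ± 4.18 in eWAT and 31.1% ± 3.71 in iWAT, against 38.7% ± 1.74 and 39.0% ± 1.88 in lean mice, and the ranges did not overlap in either depot. At 12 weeks it was 38.2% ± 2.88 and 41.6% ± 2.56, against 39.6% ± 6.52 and 42.0% ± 3.00.

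Bscl2, the gene of seipin, had the largest fall among the calls against lean mice, after 2 weeks of regression in eWAT. In eWAT the obese mice had 207, 139, 159, 100.4 and 164 CPM, against 152, 224 and 259 CPM in lean mice (log2 -0.52 ± 0.19, adjusted p = 0.0461). After 2 weeks the lowest, median and highest values were 71.1, 86.6 and 139 CPM in regression mice, against 183, 228.5 and 285 CPM in lean mice, without overlap. The log2 fold change was -1.24 ± 0.19 (adjusted p = 6.65e-06). In iWAT the obese mice had 145, 168, 125, 140 and 141 CPM, against 171, 196 and 237 CPM in lean mice, again without overlap (-0.45 ± 0.17, adjusted p = 0.0486). After 2 weeks they were at 79.6, 96.3 and 139 CPM, against 119, 170 and 224 CPM (-0.73 ± 0.17, adjusted p = 0.00196). The 2-week fall was larger in eWAT, by -0.55 ± 0.16 on the log2 scale (adjusted p = 0.0247; -0.48 with adjusted p = 0.0790 without lean mouse 2, in a fit with limma). At 6 weeks the differences were -0.27 ± 0.18 in eWAT and -0.13 ± 0.17 in iWAT, and at 12 weeks -0.43 ± 0.18 and -0.41 ± 0.17, with adjusted p from 0.0978 to 0.738. The larger difference at 2 weeks than in obesity was itself not called (-0.72 ± 0.27 in eWAT, adjusted p = 0.0990, and -0.28 ± 0.24 in iWAT, adjusted p = 0.515). Without obese mouse 4 or 2-week regression mouse 1 the eWAT change was -0.83 or -0.85, with adjusted p = 0.0437 or 0.0393.

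Both obesity calls of Bscl2 were near the threshold. In eWAT the call was lost without obese mouse 2, 3, 4 or 5 or lean mouse 1, 2, 3, 4 or 6, with -0.53 to -0.38 and adjusted p from 0.0590 to 0.217. In iWAT it was lost without obese mouse 1, 3, 4 or 5 or lean mouse 1, 3, 4 or 6, with -0.45 to -0.38 and adjusted p from 0.0662 to 0.120. Within the lower and the higher series of mouse numbers the obesity values were -0.63 and -0.48 in eWAT (adjusted p = 0.214 and 0.175) and -0.41 and -0.45 in iWAT (adjusted p = 0.249 and 0.174). The 2-week fall in eWAT held within the lower and the higher series of mouse numbers (-1.35 and -1.14, adjusted p = 0.00589 and 0.00188), and that in iWAT within the lower series (-1.03, adjusted p = 0.00303) and not within the higher (-0.46, adjusted p = 0.236). Exons of Bscl2 overlap those of Gng3 on the opposite strand, and those of AC129217.1 on the same strand by 239 bases. Gng3 had at most 3.12 CPM in any library, and the strand setting of the counting was not given in the sources used here. How far reads in the shared bases move the Bscl2 count was not tested. As to cell types, the mean of the 6 adipocyte markers was lower in eWAT by 0.74 log2 units in obesity and 0.75 at 2 weeks (exact permutation, adjusted p = 0.0346 for each). In iWAT it was lower by 0.53 in obesity and by 0.12 at 2 weeks (exact permutation, adjusted p = 0.0173 and 0.766). Their part in the Bscl2 result was not tested.

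**Figure D4:**
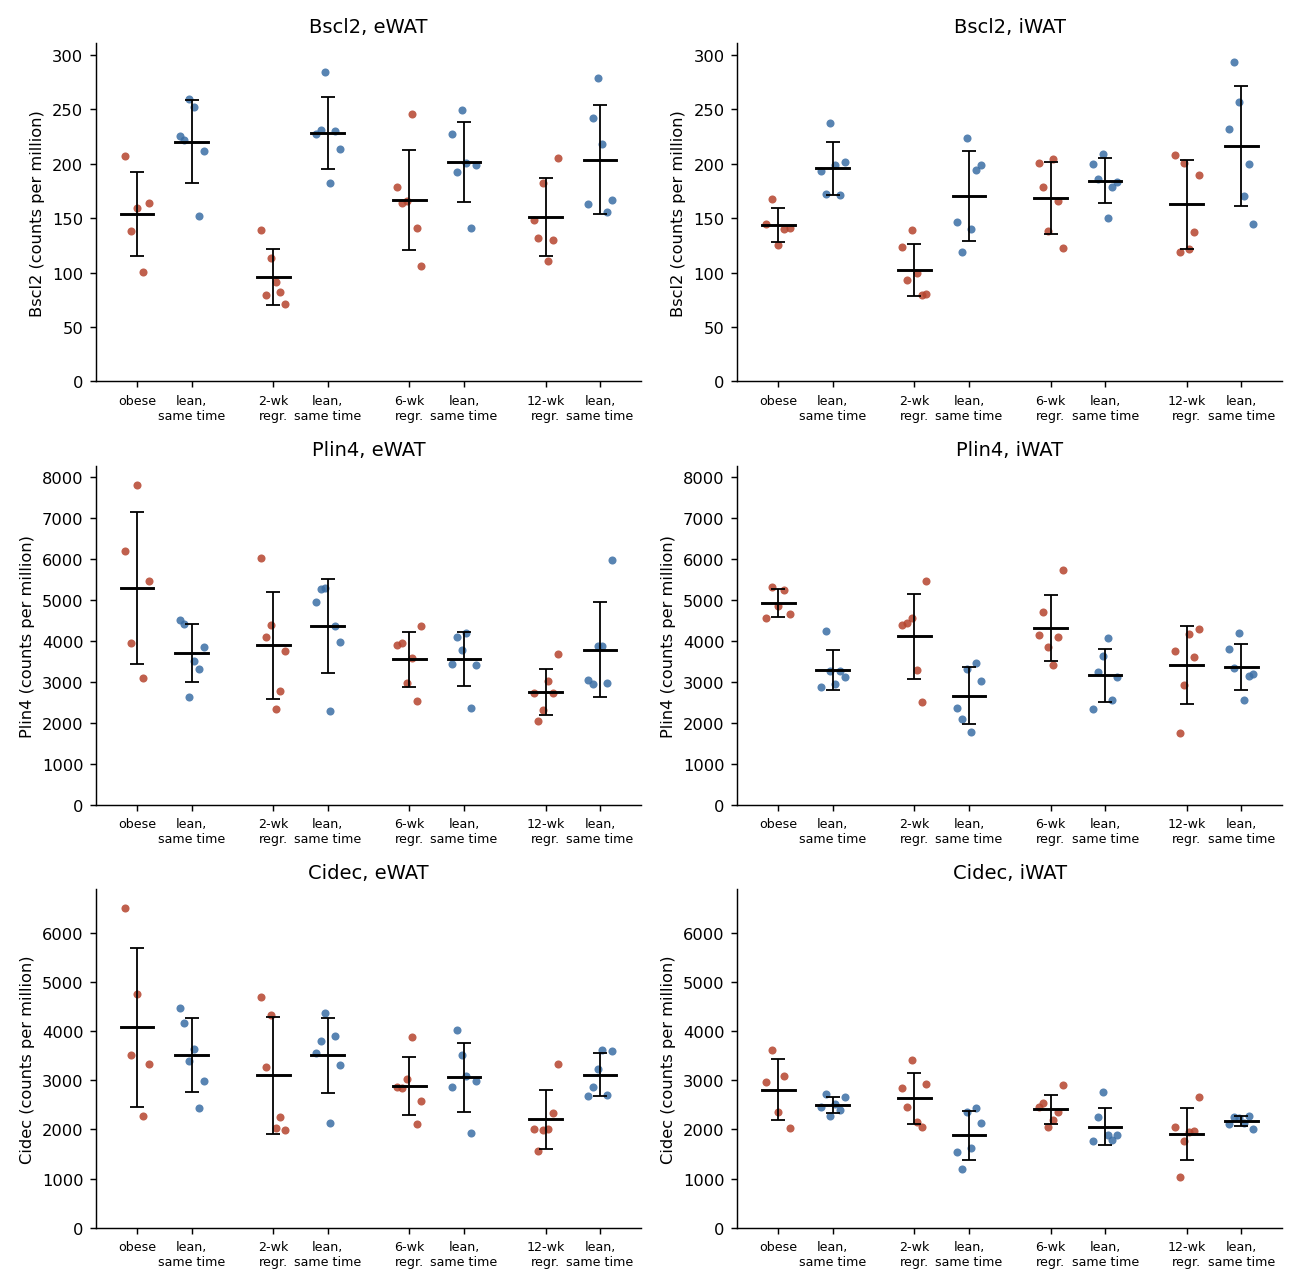
Bscl2, Plin4 and Cidec (top to bottom) in CPM for every mouse in eWAT (left) and iWAT (right), obese and regression mice in red beside lean mice of the same time in blue, with mean and SD. Bscl2 is lowest after 2 weeks of regression in both depots, at 96.1 CPM in eWAT and 103 CPM in iWAT, while Plin4 in iWAT is highest in obese mice, at 4918 CPM.

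Fitm2, the fat storage-inducing protein of adipose tissue, correlated with Bscl2 (r = 0.822 in eWAT and 0.725 in iWAT over 47 libraries, both genes read from the same library). Its exons overlap those of the antisense gene 2310001K24Rik by 227 bases, and the share of its reads that falls there was not tested. It fell in eWAT after 2 weeks, to 110, 130 and 193 CPM as lowest, median and highest value, against 160, 223 and 291 CPM in lean mice (log2 -0.66 ± 0.17, adjusted p = 0.00178). The log2 fold change was -0.72 (adjusted p = 0.0246) within the lower series of mouse numbers and -0.60 (adjusted p = 0.0537) within the higher. In obese eWAT the levels were 251, 147, 230, 100.2 and 172 CPM, against 148, 203 and 225 CPM in lean mice, with an SD of 61.4 CPM in obese and 33.6 CPM in lean mice. The depot difference at 2 weeks was -0.52 ± 0.19 (adjusted p = 0.0824), and in fits with limma it was called without 2-week regression mouse 1 (-0.69, adjusted p = 0.0153) and without lean mouse 4 or 5 (-0.65 and -0.61, adjusted p = 0.0335 and 0.0426). Without obese mouse 4 the change of the eWAT difference from obesity to 2 weeks, -0.55 ± 0.24 (adjusted p = 0.172), was -0.70 with adjusted p = 0.0427. In iWAT the log2 fold changes were -0.32 ± 0.15 in obesity (adjusted p = 0.0900), -0.20 ± 0.14 at 2 weeks, 0.13 ± 0.14 at 6 weeks and -0.19 ± 0.14 at 12 weeks. At 12 weeks in eWAT it was -0.40 ± 0.16 (adjusted p = 0.0851), and it was called without 12-week regression mouse 3 or 6 (-0.46 and -0.49, adjusted p = 0.0405 and 0.0423). Without that mouse 6, Cidec (-0.65, adjusted p = 0.0385) and Bscl2 (-0.54, adjusted p = 0.0419) were called there too.

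Fitm1, the relative found mainly in skeletal muscle, was the exception among the 9 genes. In eWAT it had 0 to 12 counts per library, at most 1.78 CPM, and did not pass the filter on low counts. The antisense gene Gm15932 overlaps its exons by 109 bases, and the share of reads there was not tested. In iWAT it ran from 0 to 68.3 CPM. The obese mice had 4.66, 0.356, 6.37, 0.396 and 6.42 CPM, against 0.148, 1.58 and 12.8 CPM in lean mice, and no comparison with lean mice called it in iWAT (log2 fold changes from -2.04 ± 1.17 to 2.18 ± 1.24). Its level followed the mean of 10 skeletal muscle markers across the 47 iWAT libraries, with Pearson's r = 0.963 and Spearman's rho = 0.955 (permutation p = 1e-05 for each, the smallest possible with 100000 resamples, adjusted p = 9e-05 over 18 relations). On deviations from the group means r was 0.958 and rho 0.962, and without the 2 libraries farthest on the marker axis r was 0.964 and 0.956. The summed muscle markers ran from 8.49 to 44944 CPM in iWAT and from 10.7 to 184 CPM in eWAT, and no difference in the mean of the muscle markers between groups of a depot passed its permutation test. Of single muscle markers, edgeR called 1 of 4 lower in eWAT at 6 weeks and 1 of 10 lower in iWAT at 2 weeks. For none of the other 8 genes did the correlation with the muscle markers pass the adjustment (adjusted p of 0.212 or more). Without 6-week regression mouse 6 (28.7 CPM) the 6-week difference of Fitm1 was -5.00 with adjusted p = 0.0496. Over all mice the 6-week difference was -2.04 ± 1.17 (adjusted p = 0.359). With muscle and other tissue marker levels as terms in that fit of all mice it was -0.06 (adjusted p = 0.951). Because Fitm1 follows the muscle markers so closely, such a term takes up its differences whatever their source. The part of muscle in the 6-week difference was not tested.

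**Figure D5:**
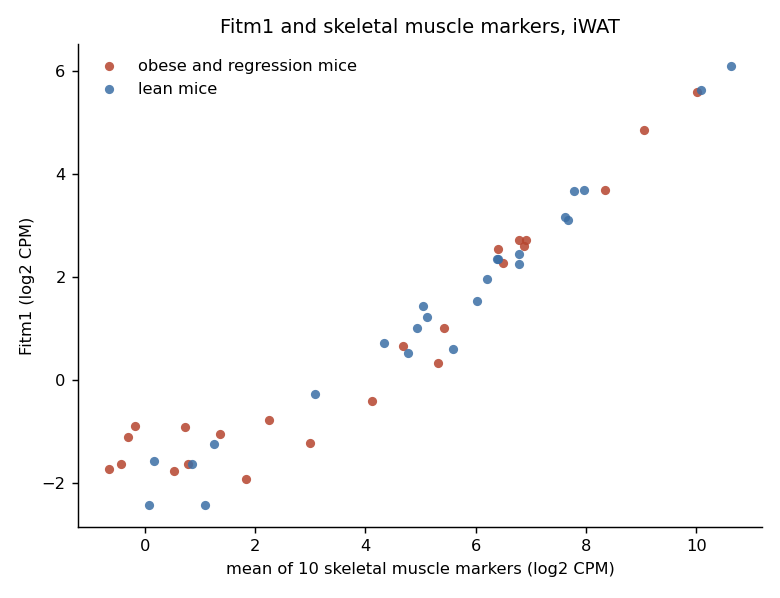
Fitm1 against the mean of 10 skeletal muscle markers in each of the 47 iWAT libraries, both as log2 CPM, with obese and regression mice in red and lean mice in blue. The points of both kinds of mice lie on 1 rising band (r = 0.963), and Fitm1 ranges from 0 to 68.3 CPM.

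Among genes that make triglyceride and build droplets, more calls were lower than higher in obesity and after 2 weeks. Of 11 genes of droplet formation and filling, 1 was higher and 2 lower in obese eWAT, 0 higher and 6 lower in obese iWAT, 0 higher and 6 lower in eWAT after 2 weeks, and 1 higher and 5 lower in iWAT after 2 weeks. Their median log2 fold changes were -0.31, -0.42, -0.53 and -0.40, against medians between -0.0034 and 0.0196 over all genes. Of all genes 23.4%, 30.2%, 35.7% and 18.8% were called in these comparisons, in either direction. The mean of the adipocyte markers differed from lean mice by -0.74, -0.53, -0.75 and -0.12 log2 units there, and their part in the counts of this list was not tested. Agpat2, an acyltransferase of triglyceride synthesis whose loss also causes lipodystrophy in humans, fell after 2 weeks by 2.50 ± 0.36 in eWAT (adjusted p = 3.80e-06) and by 2.34 ± 0.33 in iWAT (adjusted p = 3.11e-06). Dgat2, which adds the last acyl chain, fell by 1.96 ± 0.31 and by 1.32 ± 0.30, and Dgat1 by 0.85 ± 0.20 and by 0.62 ± 0.19. At 6 and at 12 weeks edgeR called 0 of these 11 in either depot.

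Of 6 other coat genes, 5 were tested in eWAT and 4 in iWAT. In obesity 1 was higher and 1 lower in each depot (medians -0.21 in eWAT and -0.11 in iWAT), and after 2 weeks 1 was higher and 2 lower in eWAT and 2 higher and 1 lower in iWAT (medians -0.31 and 0.13). Cidea, the Cide family member of brown and beige fat, fell by 1.61 ± 0.33 in obese eWAT and by 3.52 ± 0.49 in obese iWAT. Cavin1, listed under its older symbol Ptrf, rose by 0.59 ± 0.14 and by 0.63 ± 0.13. Plin1 fell in eWAT after 2 weeks (-0.73 ± 0.18, adjusted p = 0.00188). Of 5 genes of lipase control, 0 were called in obese eWAT, 2 were lower in obese iWAT, 3 were lower in eWAT after 2 weeks and 0 were called in iWAT after 2 weeks, with median log2 fold changes of -0.41, -0.45, -0.52 and -0.05. These counts stand beside 23.4%, 30.2%, 35.7% and 18.8% of all genes called. Of the 6 adipocyte markers 3, 4, 4 and 0 were lower in the same comparisons, and their part in the lipase genes was not tested. Pnpla2, the adipose triglyceride lipase that Hilpda inhibits, was 1.00 ± 0.20 log2 units lower in obese iWAT (adjusted p = 0.000168). In eWAT after 2 weeks the lower genes were Abhd5, the activator of that lipase (-0.57 ± 0.15), Lipe, the hormone-sensitive lipase (-0.52 ± 0.18), and Mgll, the monoglyceride lipase (-0.61 ± 0.17). Of 5 genes of droplet surface turnover and contacts, 0 were higher and 1 lower in obese eWAT, 0 were called in obese iWAT, 2 were higher and 2 lower in eWAT after 2 weeks, and 1 was higher and 2 lower in iWAT after 2 weeks (medians -0.08, -0.11, -0.03 and -0.09). Vps13c, a lipid transfer protein, fell by 0.60 ± 0.12 in eWAT and by 0.59 ± 0.13 in iWAT after 2 weeks.

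For each member the 3 genes with the most similar pattern were taken as those with the highest lower of the 2 Pearson correlations of log2 CPM, over 47 libraries in each depot, among 10633 genes that averaged 5 CPM or more. The closest pattern to Bscl2 was that of Aldh1a7 (r = 0.940 in eWAT and 0.942 in iWAT), followed by Aldh1l1 and Mtch2. Fitm2 was most like Pxmp4 (0.890 and 0.879) and Pex19, both genes of peroxisomal proteins. Hilpda was most like Prps1 (0.872 and 0.829), Adap2 and Tpm4. Plin4 was most like Hdgfl2 (listed as Hdgfrp2; 0.839 and 0.840), whose exons overlap those of Plin4 by 17 bases on the opposite strand, followed by Iqsec1 and Tusc5. Hdgfl2 averaged 88.1 CPM in eWAT and 90.2 CPM in iWAT. Cidec was most like Tmbim1 (0.793 and 0.807), Cavin1 (listed as Ptrf) and Grina, and Plin2 like Atp6v1a, a subunit of the lysosomal proton pump (0.745 and 0.757), Zfand2a and Mfsd12. Plin3 (Ap1s1, Ykt6 and Arf1) and Plin5 (Elof1, Nat6 and Nudt18) had weaker matches, with r from 0.608 to 0.854, and the match of Fitm1 with Ak1 was 0.600 in eWAT and 0.894 in iWAT.

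Library totals ran from 1318944 to 25866576 counts in eWAT, where all but 1 library of the 2-week regression group had at least 5929260, and from 6268458 to 34327987 counts in iWAT. Without the shallowest library, 4 of the droplet genes were called in eWAT after 2 weeks, as with it. The 6 adipocyte markers summed to at least 6139 CPM in every eWAT library and at least 5968 CPM in every iWAT library. Epididymal duct markers reached 5784 summed CPM in single eWAT libraries, and their mean passed no permutation test there. Of the 5 duct genes edgeR called 2 higher in obese eWAT, 4 lower at 2 weeks and 5 lower at 6 weeks. The authors' deposited table gave the same calls as edgeR in 14 of the 15 values it called among 67, and the same sign in 66.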

How the data were processed

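Whole eWAT and iWAT were homogenised, and poly(A) RNA was sequenced paired-end, per the labels' protocols. STAR 2.4.1c, mm10, R 4.2.2 and DESeq2 1.38.3 are named in the submitters' processing notes, while the counting program, its annotation and its use of strand were not given in the sources used here. Raw counts per gene symbol were deposited by the authors for each depot, whole numbers with no normalization, and, per the file headers, a table of DESeq2 log2 fold changes with adjusted p-values (their model: not given in the sources used here).

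CPM values were made from the deposited counts with TMM-scaled library sizes. Each depot was fitted over its 47 libraries and 8 groups with the quasi-likelihood test of edgeR 4.0.16 (TMM, filterByExpr), and the depots together over 94 libraries with the mouse as a block, in R 4.3.3. Calls have a Benjamini-Hochberg adjusted p of at most 0.05 over all genes tested, and every adjusted p of a gene is from edgeR unless another tool is named. Errors of log2 fold changes are SE. Alternatives used DESeq2 1.42.0, limma 3.58.1, other filters and blocks, and left out each mouse in turn; the limma depot fits were added after the data were seen. Marker lists were compared with 2-sided exact permutation tests of mean log2 CPM. The scripts were tested on simulated data. Members and lists were chosen with earlier results of these data known; all 9 members, the called genes of the lists and 3 genes of similar pattern per member are named, except for some that are not reported here. Gene positions are from GENCODE M21, and promoters from RefSeq. The labels give separate mice, with up to 3 per enclosure, and which mice shared one is not given. No replicates agreed within sampling noise (lowest chi-square per degree of freedom 3.63 in eWAT and 7.11 in iWAT over 115 pairs each). Depth limits Fitm1 in eWAT and, for the shallowest eWAT library (1318944 counts), Plin5 with 12 counts and Bscl2 with 115.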

Additional observations from a re-analysis of the deposited data

Results flagged for a closer look

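In 16 of 144 groups of 5 or 6 mice a single mouse lay far from the others of its group, where chance gives about 1 in 20. In eWAT these were Plin2 in 6-week regression mouse 6 (809.71 CPM), Plin4 in 12-week lean mouse 6 (5970.9 CPM), Fitm1 in 6-week lean mouse 3 (1.073 CPM) and Fitm2 in 6-week lean mouse 5 (131.51 CPM). Hilpda in eWAT stood apart in 6-week regression mouse 6 (32.492 CPM) and 12-week regression mouse 3 (8.5099 CPM), and in lean mouse 2 of the obese time (15.23 CPM) and lean mouse 2 of the 2-week time (26.743 CPM). In iWAT Hilpda did so in 12-week regression mouse 1 (16.517 CPM) and 12-week lean mouse 2 (8.3248 CPM), Plin4 in lean mouse 2 of the obese time (4243.2 CPM) and Plin5 in 2-week lean mouse 3 (47.222 CPM). Fitm1 in iWAT did so in regression mice 6 of 2 weeks (5.6816 CPM), 6 of 6 weeks (28.681 CPM) and 5 of 12 weeks (47.823 CPM), and in lean mouse 4 of the obese time (12.799 CPM).

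Some differences between effects also passed their test. The difference from lean mice changed between obesity and 12 weeks for Hilpda in eWAT (-1.6339 log2 units) and iWAT (-1.9844) and for Plin5 in eWAT (-1.6262), and between obesity and 6 weeks for Hilpda in iWAT (-1.6851). It differed between eWAT and iWAT for Plin2 in obesity (0.9852), at 2 weeks (0.9806) and at 6 weeks (1.0966), and at 2 weeks for Bscl2 (-0.5474), Cidec (-0.7503) and Plin4 (-0.8107).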

How the results depend on the processing

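The count of droplet genes called was recomputed under each alternative, and no result that was called changed sign; sign changes of uncalled values were not counted. In obese eWAT 1 gene was called in place of 2 with no count filter, with the compared groups alone, within each series of mouse numbers, with runs of neighbouring mouse numbers as a random block (limma) and with other-tissue markers as terms. In eWAT 1 gene was called at 2 weeks in the higher series, 0 at 12 weeks within each series, and for the change from obesity to 12 weeks 0 within each series and 1 with the random block. In obese iWAT the count was 5 with the groups alone, 1 within each series and 1 with the random block. In iWAT at 2 weeks it was 2 with the groups alone, 0 in the higher series and 2 with the random block, and at 12 weeks 1 with DESeq2 and 1 with the marker terms. The iWAT change to 6 weeks gave 2 with the groups alone, 0 within each series and 0 with the random block, and the change to 12 weeks gave 0 in the higher series. Fits of the groups alone and of each series use fewer libraries; elsewhere the cause was not tested. Without the mouse as a block (no replicate block) the depot differences gave 0 in obesity, 1 at 2 weeks and 0 at 6 weeks, and limma within each series gave 0 for all of these. With 1 mouse left out, the counts ran in eWAT from 1 to 2 in obesity, 4 to 4, 0 to 0 and 1 to 4 at 2, 6 and 12 weeks, and 0 to 2, 0 to 1 and 2 to 3 for the changes. In iWAT they ran from 2 to 4, 3 to 4, 0 to 1 and 0 to 0, and 0 to 0, 1 to 1 and 1 to 1 for the changes. They stayed at 0 for the lean times and 6 for the lean depots, and the depot differences gave 0 to 1, 2 to 5, 1 to 1 and 0 to 0. Leaving out mice in the depot fit was run with limma, added after seeing the data, and not with edgeR. Deviations from the group means had correlations from -0.596 to 0.629 between same-numbered mice of an obese or regression group and its lean group. Mice of different numbers were not compared, so this check cannot settle whether the numbers pair the mice. With the replicate block each depot gave the same counts as without it, 2, 4, 0 and 1 in eWAT and 3, 4, 0 and 0 in iWAT.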
